A study of Homo sapiens with 17 samples.

Results

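The later response of SF8628 cells to the BET bromodomain inhibitor AZD5153 was measured by RNA-Seq in 6 libraries, 3 from cells treated with 1 μM AZD5153 for 48 hours and 3 from cells treated with the solvent DMSO for 48 hours. They were chosen by their labels from the 12 RNA-Seq libraries of this experiment, the other 6 of which are the same treatments at 24 hours, and from 17 samples in the series. SF8628 is an established cell line of diffuse midline glioma, labelled DIPG (diffuse intrinsic pontine glioma), that carries a lysine-to-methionine mutation in histone H3, and all groups were grown as adherent cells in serum. The table lists 60664 genes, and 15599 whose mean over the 12 libraries reached 10 normalized counts entered the tests. A normalized count is a gene's reads after division by the library's size factor. No label says whether replicate libraries came from separate cultures, so p-values measure the spread between these libraries, which may be technical.

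BET proteins carry bromodomains that bind acetylated lysines of histones, and they help to bring the elongation kinase P-TEFb to active promoters and enhancers. P-TEFb is held inactive by HEXIM1 and the 7SK RNA, and it releases RNA polymerase II from its pause near the start of genes. AZD5153 binds the bromodomains of BET proteins and displaces these proteins from chromatin. The question of the comparison is which genes and gene families differ once cells have been exposed for 48 hours.

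Between 17360430 and 20984985 reads fell on genes in the DMSO libraries at 48 hours and between 19288834 and 24678813 in the AZD5153 libraries. Mitochondrially encoded genes are listed at 0 in every library. The glioma lineage markers *OLIG1*, *OLIG2* and *NKX2-2* were at 0 in all 6 libraries and *PDGFRA* had a mean of 4.42 normalized counts with DMSO, whereas *VIM* had a mean of 15330 and the mesenchymal marker *COL1A1* one of 57810. The data therefore lack reads of these transcription factors of the oligodendrocyte lineage, which a midline glioma can hold, and show abundant mesenchymal transcripts. Other members of the glial list were present with DMSO, with means of 2933 for *CSPG4*, 1993 for *NES*, 994.5 for *SOX9* and 236.1 for *SOX2*. Of the 36 genes of that list 19 passed the minimum mean and 6 were at 0 in all 12 libraries. Of 12 myeloid and lymphoid markers, 6 were at 0 in all 12 libraries, *PTPRC* was at or below 3.55 normalized counts in these 6, and *CSF1R* alone had a mean above 100 with DMSO (197).

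AZD5153 changed most expressed genes. At 48 hours 10453 of 15599 genes (67.0%) passed an adjusted p of 0.05 by limma with Benjamini-Hochberg adjustment on log2(normalized count + 1), 5159 of them higher (33.1%) and 5294 lower (33.9%). Changes with fewer transcripts reached further than those with more. The median log2 change was 0.65 among genes that rose and -0.97 among genes that fell, 1379 genes rose by more than 1 (8.84%) and 2580 fell by more than 1 (16.5%), and beyond 3 on the log2 scale there were 79 and 397. All 3 AZD5153 libraries lay above all 3 DMSO libraries for 5846 genes (37.5%) and below them for 5809 (37.2%). In the plot of change against level the long lower tail lies among genes of low and middle level, while abundant genes lie mostly above 0.

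**Figure D1:**
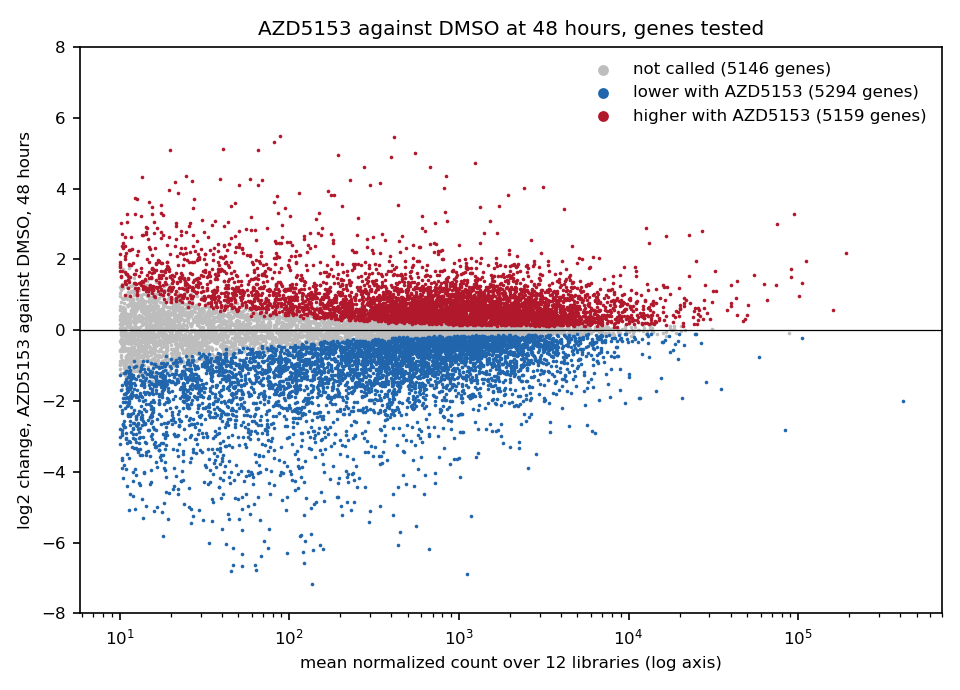
Each point is 1 of 15599 tested genes, placed by its mean normalized count over the 12 libraries (log axis) and its log2 change with AZD5153 at 48 hours. Red points (5159 genes) rose, blue points (5294) fell and grey points did not pass an adjusted p of 0.05.

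The direction of change went with the level of the gene. Of 228 genes with a mean of 10000 or more, 67.5% rose and 16.7% fell. Of 4638 genes with a mean from 10 to 100, 16.5% rose and 31% fell. These levels include the treated libraries. Genes that rose held 43.1% to 43.3% of all normalized counts in the DMSO libraries and 64.2% to 64.4% in the AZD5153 libraries. They were chosen by these same libraries, so a larger share with AZD5153 follows from the choice. Of 1803 long non-coding RNAs 19.5% rose and 27.3% fell, and of 12757 protein-coding genes 36.1% and 36.3%, with no test of the difference and not at matched levels. Among protein-coding genes longer than 200 kb, 31.9% rose and 43.4% fell (1068 genes). With libraries scaled to equal totals the median change of all genes moved from 0.00 to -0.17, and the calls became 3896 higher and 6511 lower, so that higher genes made up 37.4% of calls in place of 49.4%. A lower level in these bulk samples cannot tell fewer cells of a type from less RNA per cell.

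Genes of BET proteins and their partners split. *HEXIM1* (chr17:45148475-45152099 on GRCh38, ENSG00000186834), the inhibitor of P-TEFb, was at 2606, 2732 and 2734 normalized counts in the DMSO libraries and at 11183, 10824 and 11313 in the AZD5153 libraries. It rose 4.13-fold, a log2 change of 2.05 ± 0.055 (SE, n = 3 per group, adjusted p = 7e-14 by limma). *BRD2* (chr6:32968594-32981505), itself a BET protein, rose from 2645, 2488 and 2596 to 8639, 9178 and 8667, a log2 change of 1.78 ± 0.069. The groups do not overlap for either gene. *BRD3*, also a BET protein, was at 1286, 1383 and 1220 with DMSO and at 1314, 1297 and 1272 with AZD5153, and these groups overlap. Its log2 change of -0.00 ± 0.067 did not pass the test, but with equal totals it was -0.17 and passed as lower. Without strand its reads cannot be told from those of the antisense gene *BRD3OS*.

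Of the 16 genes of BET proteins and the P-TEFb complex, 8 rose, 2 fell and 6 were not called, with a median of 0.19. With equal totals 6 rose and 5 fell, with a median of 0.02. *ELL2*, a subunit of the super elongation complex, rose by 0.95 ± 0.090 and the cyclin *CCNT2* of P-TEFb was at -0.43 ± 0.084. *SERPINI1*, the inhibitor neuroserpin and a marker of BET inhibition, was at 297, 262 and 257 with DMSO and 936, 974 and 919.8 with AZD5153, 3.46-fold higher. Its effect was smaller than at 24 hours, where the log2 change was 3.04 (difference -1.25, adjusted p = 2.1e-06 by limma), and its DMSO level itself stood at 130 ± 5.30 (SD, n = 3) at 24 hours. Mediator, the complex that links enhancers to RNA polymerase II, showed 13 of 32 subunits higher and 14 lower with a median of 0.01. Among 11 histone acetyltransferases 3 rose and 5 fell. Of all genes 33.1% rose and 33.9% fell. *KAT2B* (PCAF) rose by 1.54 ± 0.077 and *CREBBP* (CBP) fell from 3240, 3020 and 3176 to 1758, 1693 and 1737. Of 11 tested genes of the repressive complex PRC2, 7 fell and 2 rose, led by the accessory subunit *PHF19*, which went from 2285, 2240 and 2091 with DMSO to 172, 185 and 244 with AZD5153, while the methyltransferase *EZH1* rose by 0.78 ± 0.068.

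**Figure D2:**
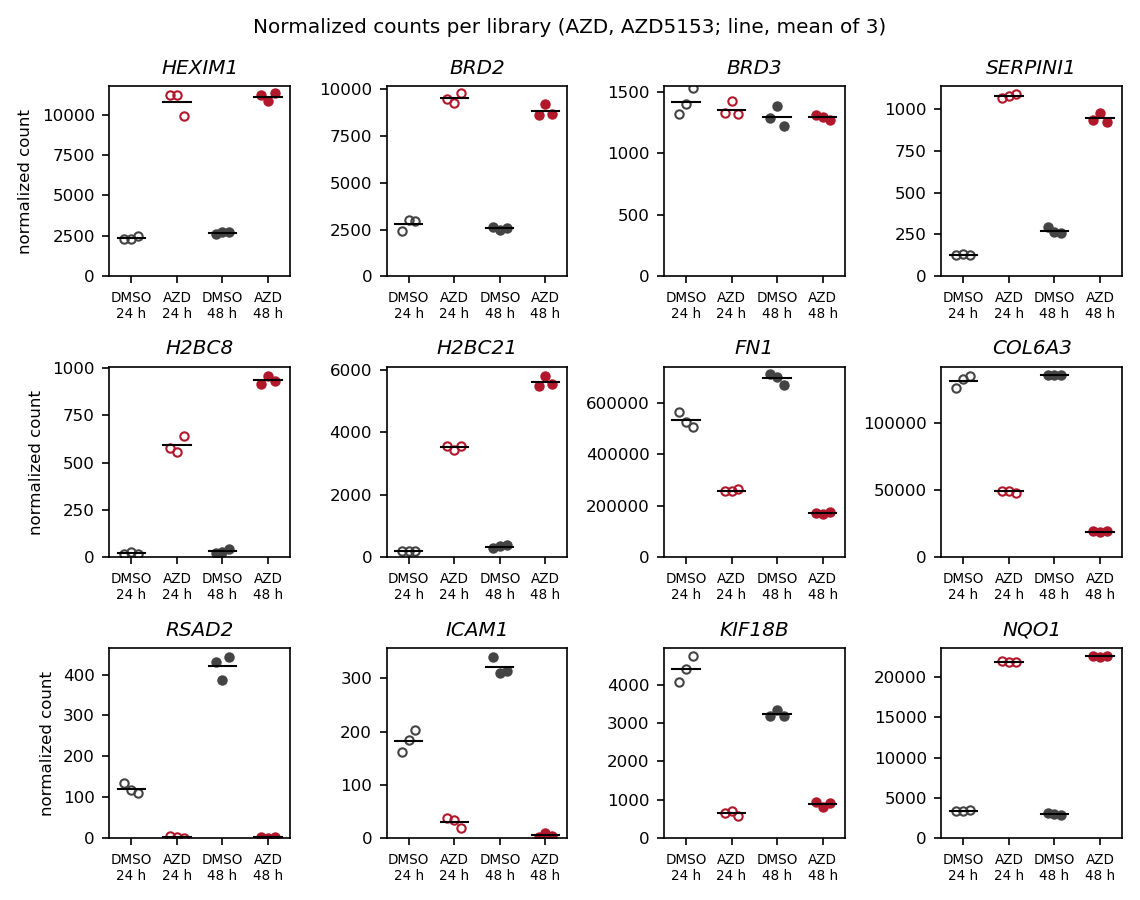
Normalized counts of 12 genes in each of the 12 libraries, with grey points for DMSO and red points for AZD5153, open at 24 hours and filled at 48 hours, and a line at the mean of each 3. *BRD3* stays between 1220 and 1383 with DMSO at 48 hours and between 1272 and 1314 with AZD5153, while the groups of the other 11 genes do not overlap at 48 hours.

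Replication-dependent histones gave the largest median increase of the 61 lists. They form the nucleosomes of newly made DNA, and most lie in a cluster on chromosome 6 with a smaller one on chromosome 1. Their normal mRNAs end in a stem-loop in place of a poly(A) tail, and the labels do not say how RNA was selected. Promoters of the 3 genes with the largest increase that hold a TATA box in the 120 bases before their RefSeq start are shown first (GRCh38.p14, 5′ to 3′). They were picked among called members with a promoter sequence and a mean of at least 100. Capitals mark TATAAA and the CCAAT box, the latter on either strand.
H2BC8: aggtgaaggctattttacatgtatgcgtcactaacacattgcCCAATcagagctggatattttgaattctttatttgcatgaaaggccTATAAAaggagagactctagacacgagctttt
H2BC5: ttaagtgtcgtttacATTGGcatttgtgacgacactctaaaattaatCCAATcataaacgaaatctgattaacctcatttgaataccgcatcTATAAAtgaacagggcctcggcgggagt
H2BC21: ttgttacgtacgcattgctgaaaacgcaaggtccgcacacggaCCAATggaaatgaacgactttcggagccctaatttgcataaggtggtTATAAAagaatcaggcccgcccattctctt
These bases lie at chr6:26216689-26216808 on the minus strand, chr6:26158001-26158120 on the plus strand and chr1:149886683-149886802 on the minus strand. Over windows of 250 bases before to 50 after the start, TATAAA on either strand was held by 20 of 32 list members with a promoter sequence (62.5%), against 5.79% of 11180 tested genes and 12% of all 27305 promoters of the RefSeq table. CCAAT was held by 26 of the 32 (81.2%), against 36.6% of tested genes and 35.7% of all promoters. A match describes the letters only.

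Of 67 replication-dependent histone genes, 33 passed the minimum mean, 31 of these rose and 0 fell, with a median log2 change of 2.97 and a range from 0.91 to 5.49. Genes near 0 with DMSO passed the minimum through their AZD5153 libraries and had to differ, so these counts describe the members that passed and not the whole family. *H2BC8*, an H2B gene, was at 22.5, 27.5 and 45.4 with DMSO and 915, 959 and 933 with AZD5153, a log2 change of 4.90 ± 0.202 (adjusted p = 6.8e-12 by limma). *H2BC5* was at 106, 121 and 98.3 and then 2767, 2930 and 2952. No DMSO library of either gene was above 121 normalized counts and no AZD5153 library below 915. *H2BC21* (chr1:149884459-149886682) rose from 302, 352 and 382 to 5482, 5813 and 5556 and the linker histone *H1-2* from 307, 305 and 336 to 4494, 4345 and 4503, which is 14-fold. *H4C8*, *H4C14*, *H2BC4*, *H2BC6* and *H2BC18* rose by 4.62, 4.61, 4.23, 4.15 and 4.09 on the log2 scale. Histone genes of 1 class are near copies of each other, so the split of reads among them is uncertain, and *H2BC4* and *H2BC18* overlap genes with more reads than their own (*HFE*, mean 303.1, and an unnamed gene, mean 416).

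Replication-independent histone variants gave a smaller increase. Of 11 such genes 5 rose and 3 fell. *H3-3B*, which encodes H3.3, went from 12810, 13154 and 13640 to 25313, 24481 and 24929 and *H3-3A* rose by 1.07 ± 0.057. *CENPA*, the centromeric H3, fell from 495, 475 and 458 to 167, 149 and 178, in a locus it shares with the more abundant *SLC35F6*.

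Of the 12 largest increases *ID4*, *CDKN1A*, *EFR3B* and *FCGR1A* are no histone genes. *ID4* (chr6:19837370-19842197), a dominant-negative helix-loop-helix factor of neural progenitors, was at 36.9, 11.5 and 25.9 with DMSO and 771, 765 and 727 with AZD5153, a log2 change of 5.01 ± 0.262. *ID2*, its close relative and named from the TGF-beta and BMP list, rose from 215, 246 and 180.3 to 2496, 2396 and 2440. *CDKN1A*, the p21 inhibitor of cyclin-dependent kinases, stood at 344, 289.9 and 271 and 5059, 4962 and 4780, 16.4-fold higher, against a log2 change of 4.78 at 24 hours (difference -0.75, adjusted p = 0.0017 by limma). *EFR3B*, a membrane anchor of a phosphatidylinositol kinase complex, went from 89.2, 78.9 and 69.1 to 1345, 1286 and 1238. *FCGR1A*, an Fc receptor of myeloid cells, rose from 17.1, 7.98 and 19.4 to 481, 470.5 and 439. It lies on chromosome 1 over the histone gene *H2BC18*, which rose itself, and an unnamed gene with a mean of 416, both on the opposite strand, so without strand its reads cannot be told from theirs. The defining myeloid genes *TYROBP* and *AIF1* were at 0 in all 6 libraries.

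The largest decreases were nearly complete losses. *RSAD2* (chr2:6865557-6898239), the interferon-induced antiviral enzyme viperin, was at 431, 386 and 443 with DMSO and at 3.65, 0 and 4.28 with AZD5153, a log2 change of -7.18 ± 0.516 (adjusted p = 4.7e-09 by limma). The added count of 1 understates changes of this size, since few reads remained. *SHISAL1* (chr22:44243665-44312951), a membrane protein of the Shisa-like family, fell from 2379, 2473 and 2300 to 19.1, 21.7 and 17.1, a log2 change of -6.88 ± 0.129. *GPR183*, a receptor for oxysterols, went from 195, 208 and 209.5 to 0.912, 0 and 4.28. It lies within *UBAC2*, which has a mean of 2022 on the opposite strand.

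Several of the 12 largest decreases act outside the cell or at its surface. *CCN4* (WISP1), a WNT-induced matricellular protein, fell from 1848, 1817 and 1696 to 39.2, 10.9 and 29.9. *FAP*, the fibroblast activation protease, fell from 1039, 1024 and 959 to 17.3, 13.04 and 11.98, and the interstitial collagenase *MMP1* from 250.4, 222 and 218 to 4.56, 1.09 and 3.42. *ICAM1*, an adhesion molecule for leukocytes, fell from 339.6, 309 and 314 to 2.73, 9.78 and 4.28. The natriuretic peptide receptor *NPR1*, the cysteine protease *CTSS* and the metalloprotease *ADAM33* had log2 changes of -6.22, -6.08 and -5.80, and *INSYN2B* and *RFX8* of -6.25 and -5.81. No AZD5153 library of these 5 genes was above 8.69 normalized counts.

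Most genes of the extracellular matrix lists fell. Of 31 tested collagen chains 25 fell and 2 rose, with a median of -1.85, and of 27 fibrillar and matricellular proteins 22 fell and 3 rose, with a median of -1.97, against a median of 0.00 over all genes. *COL6A3* (chr2:237324003-237414328), a chain of the beaded collagen VI, was at 135166, 135264 and 135468 with DMSO and at 19462, 18519 and 19436 with AZD5153, 7.07-fold lower with a log2 change of -2.82 ± 0.039. *FN1*, fibronectin, was the gene with the most reads of every DMSO library and was named after its values were seen. It took 3.57% to 3.79% of reads in the DMSO libraries and fell from 711047, 700009 and 669892 to 172051, 167805 and 175462. In the AZD5153 libraries *FTL*, the ferritin light chain, took its place with 1.70% to 1.76%.

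**Figure D3:**
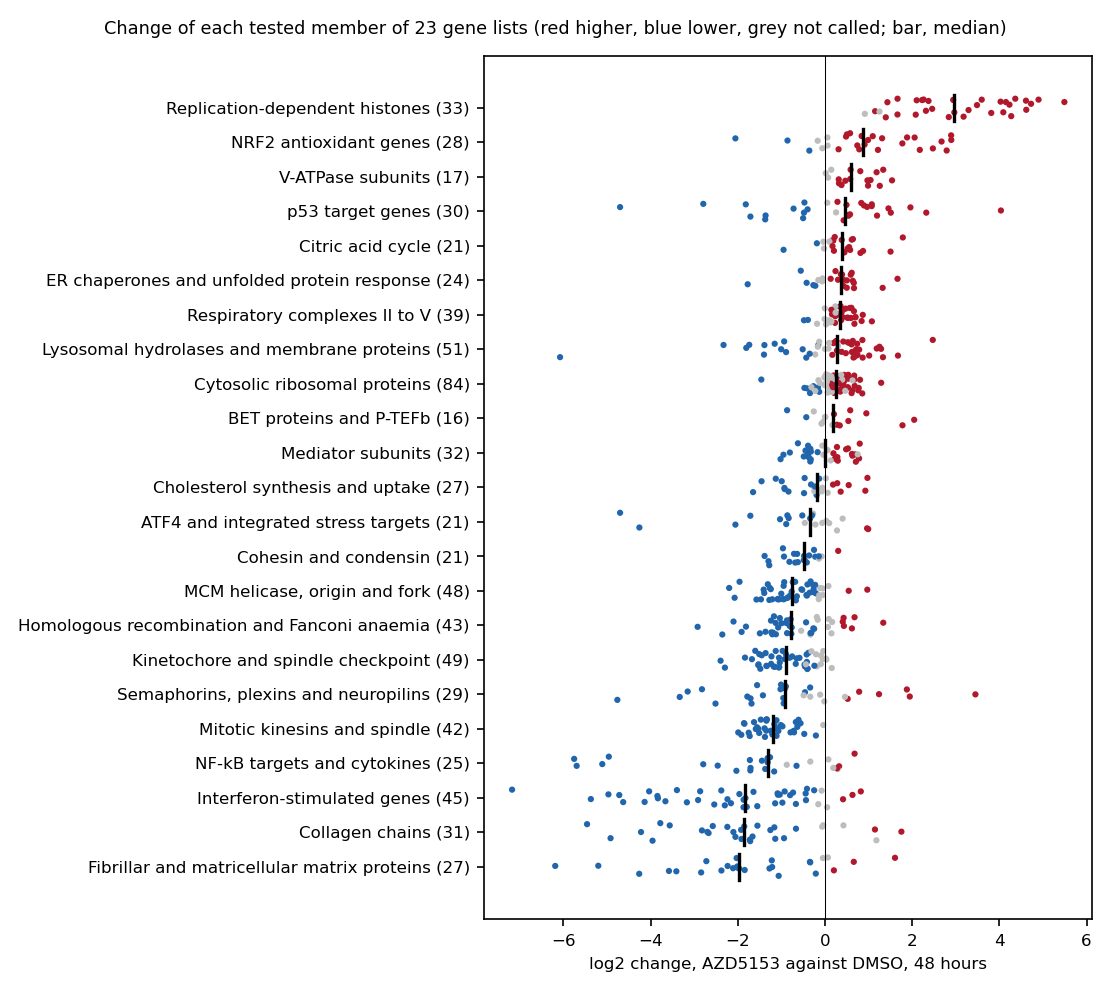
Each point is 1 tested gene of a list, placed by its log2 change with AZD5153 at 48 hours, red where it rose, blue where it fell and grey where it was not called. Black bars are list medians, from 2.97 for replication-dependent histones to -1.97 for fibrillar and matricellular matrix proteins, and the number of tested members follows each name.

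Among the less abundant chains *COL16A1* went from 186, 169 and 198 to 9.12, 7.61 and 10.3 and *COL8A2* had a log2 change of -3.78. *COL4A6*, a basement membrane chain, rose from 156, 192 and 152 to 522, 619 and 547. The elastic fibre proteins *EMILIN1* and *LTBP2* had log2 changes of -3.58 and -3.41. *CCN2* (CTGF), a matricellular protein, instead rose from 846, 902 and 816 to 2579, 2574 and 2646, and *SPP1* (osteopontin) rose by 0.66 ± 0.065. Enzymes that finish collagen split: of 19, 10 fell and 5 rose. *PCOLCE*, which speeds removal of the procollagen end, fell from 3937, 3802 and 3785 to 369, 391 and 406, the crosslinking oxidase *LOX*, which overlaps *SRFBP1*, was at -3.57 ± 0.182, and the prolyl hydroxylase *P4HA1* rose by 1.08 ± 0.074.

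Mesenchymal marker genes, some of which are also on the collagen list, moved with these families. Of 10 tested, 8 fell and 0 rose, among them *COL1A1*, from 59769, 58743 and 54917 to 18463, 18188 and 18101, and *PDGFRB*, from 4368, 4534 and 4247 to 1062, 1116 and 1088. *PRRX1*, a transcription factor of mesenchyme, fell from 2279, 2293 and 2346 to 305, 355 and 303. *THY1*, on the same list, was at 2854, 2760 and 2607 and 2872, 2751 and 2887, a log2 change of 0.05 that did not pass (adjusted p = 0.48 by limma). Of 15 tested genes of laminins and basement membrane 9 fell, led by *NID1* with -2.09 ± 0.056, and 5 rose.

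Adhesion and the cytoskeleton did not follow the matrix as a whole, beside 33.9% of all genes lower and 33.1% higher. Of 20 integrin subunits 8 fell and 7 rose, with a median of 0.01, and under quantile normalization 6 fell and 7 rose. *ITGA10*, a collagen-binding subunit, fell from 702, 752 and 633 to 19.1, 16.3 and 11.1, while *ITGA3*, a laminin-binding one, rose from 65438, 65670 and 60098 to 163158, 158920 and 161147. Of 25 actin, myosin and contractile genes 11 fell and 9 rose. *FLNC*, the actin crosslinker filamin C, rose from 14679, 14437 and 13943 to 140625, 135675 and 139498, 9.66-fold, and the tropomyosin *TPM4* was at -1.61 ± 0.057. Among 28 matrix proteases and inhibitors 17 fell and 8 rose: urokinase (*PLAU*) fell from 1536, 1492 and 1536 to 169, 243 and 172 and its inhibitor *SERPINE2* rose from 972, 1057 and 1066 to 2779, 2657 and 2670. Clustered protocadherins, cell recognition molecules that share constant exons, had 13 of 21 tested genes lower and 1 higher.

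Most interferon-stimulated genes fell. Of 54 on the list 45 were tested, 39 fell and 3 rose, with a median of -1.82. *OASL*, an antiviral sensor-related protein, was at 895, 1026 and 849.8 with DMSO and 33.7, 22.8 and 29.9 with AZD5153. *IFITM2*, which blocks viral entry, fell from 463, 419 and 487 to 16.4, 14.1 and 18.8, a log2 change of -4.72 ± 0.148. Of the 3 that rose, *IFI6* was at 0.63 ± 0.165.

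Antigen presentation genes fell and rose, and most inflammatory genes fell. Of 19 genes of MHC class I presentation 10 fell and 4 rose. The immunoproteasome subunit *PSMB8*, which overlaps *PSMB9*, fell from 594, 617 and 587 to 88.5, 78.2 and 89.8, whereas the heavy chain *HLA-C* rose from 2003, 1949 and 1800 to 4101, 3844 and 3921. Reads of HLA genes are uncertain because the genes are close copies. Of 25 tested NF-kB targets and cytokines 17 fell and 3 rose, with a median of -1.32. *VCAM1*, a partner of leukocyte integrins, fell from 754, 722 and 774 to 14.6, 9.78 and 17.1 and the chemokine *CXCL12* from 494, 461 and 484 to 12.8, 14.1 and 11.98. *NFKBIA*, the feedback inhibitor of NF-kB, rose from 482, 514 and 444 to 768, 805 and 731.

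Most genes of cell division fell. The kinesin and spindle list is known for a promoter element, the cell cycle genes homology region (CHR), to which repressor and activator complexes of the cell cycle bind, and the replication list for E2F sites. For each list the 3 genes with the largest decrease that hold the letters in the 120 bases before their RefSeq start are shown (GRCh38.p14, 5′ to 3′). Capitals mark TTTGAA (CHR) and CCAAT on either strand in the 3 spindle genes.
ESPL1: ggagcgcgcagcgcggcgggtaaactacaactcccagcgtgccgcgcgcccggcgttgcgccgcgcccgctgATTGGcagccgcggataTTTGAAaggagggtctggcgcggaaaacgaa
KIF15: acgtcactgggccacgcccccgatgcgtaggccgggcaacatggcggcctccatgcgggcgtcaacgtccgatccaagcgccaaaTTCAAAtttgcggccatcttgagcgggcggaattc
HMMR: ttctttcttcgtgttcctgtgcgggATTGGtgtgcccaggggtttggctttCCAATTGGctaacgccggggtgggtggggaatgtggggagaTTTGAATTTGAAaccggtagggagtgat
Capitals mark the E2F words TTTCCCGC, TTTGGCGC, TTTGCCGC and TTTCGCGC, on either strand, in the 3 replication genes.
CDT1: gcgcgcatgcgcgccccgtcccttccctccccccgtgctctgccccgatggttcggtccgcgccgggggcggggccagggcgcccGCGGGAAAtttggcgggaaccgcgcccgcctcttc
GINS2: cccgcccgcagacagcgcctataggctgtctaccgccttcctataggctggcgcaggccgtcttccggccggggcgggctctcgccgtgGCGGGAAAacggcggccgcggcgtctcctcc
RFC3: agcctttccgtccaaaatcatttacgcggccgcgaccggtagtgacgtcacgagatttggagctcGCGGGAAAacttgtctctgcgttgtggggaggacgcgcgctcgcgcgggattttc
The spindle windows lie on the plus strand at chr12:53268179-53268298, chr3:44761674-44761793 and chr5:163460512-163460631. Those of the replication genes are chr16:88803669-88803788 and chr13:33818029-33818148 on the plus strand and chr16:85688955-85689074 on the minus strand. In the windows of 300 bases TTTGAA was held by 23 of 37 spindle genes (62.2%), against 9.73% of tested genes and 15.4% of all promoters. The E2F words were held by 19 of 40 replication genes (47.5%), against 5.25% and 3.33%. TTTGAA was in 0 of those 40, and the E2F words were in 4 of the 37 spindle genes.

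Of 42 tested kinesin and spindle genes 41 fell and 0 rose, with a median of -1.20, and of 49 kinetochore and checkpoint genes 38 fell and 0 rose, with a median of -0.90. *KIF18B* (chr17:44924709-44947773), a kinesin that shortens astral microtubules, was at 3193, 3340 and 3177 with DMSO and 956, 810.5 and 916 with AZD5153, 3.62-fold lower. *ESPL1*, the separase that opens cohesin, fell from 1499, 1560 and 1587 to 375, 411 and 443, and *FOXM1*, the transcription factor of late cell cycle genes, from 4240, 4190 and 4468 to 1065, 1117 and 1064. In the kinetochore list *SGO1* and *NDC80*, a guard of centromeric cohesion and a microtubule attachment protein, had log2 changes of -2.30 and -1.84. Of 21 cohesin and condensin genes 18 fell, with *SMC2* at -1.39 ± 0.080.

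Of 48 genes of the MCM helicase, origins and forks 40 fell and 2 rose, with a median of -0.75. *MCM5*, a helicase subunit, went from 2078, 2254 and 1972 to 508, 442 and 424 and *CDT1*, the origin licensing factor, from 814, 731 and 750.4 to 176, 213 and 200.2. *ORC4*, of the origin recognition complex, was 1 of the 2 that rose, from 1251, 1213 and 1294 to 2477, 2414 and 2470. In deoxynucleotide synthesis 10 of 13 genes fell, among them *DUT* with -1.21 and *RRM1*, from 4072, 4223 and 4214 to 2079, 2079 and 2085. *SAMHD1*, which breaks deoxynucleotides down, rose from 585, 528 and 564 to 2239, 2286 and 2308, and *RRM2B*, the subunit of ribonucleotide reductase used outside S phase, by 1.07 ± 0.072. Among 26 genes of G1 control 17 fell and 6 rose: *E2F2* fell from 461, 543 and 465 to 32.8, 48.9 and 53.05 and cyclin D1 (*CCND1*) rose from 5604, 5559 and 5277 to 11235, 11281 and 11563.

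Repair lists differed in how one-sided they were, beside the 33.9% of all genes that fell and the 33.1% that rose. Of 43 genes of homologous recombination and the Fanconi anaemia pathway 29 fell and 6 rose, with a median of -0.79. *FANCD2*, which is loaded at crosslinks, fell from 987, 1033 and 1002 to 114, 159.7 and 127, *RMI2* of the BLM complex from 969, 859 and 892 to 182, 163 and 185, and the helicase recruiter *HROB* was at -2.10. *SLX4*, the scaffold of structure-specific nucleases, rose from 641, 586 and 529 to 1438, 1529 and 1459. Of 42 genes of mismatch, excision and single-strand break repair 21 fell and 15 rose, with *DDB2* at -1.36 and *XPA* at 1.42, both of nucleotide excision repair. The difference between the lists was not tested.

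Protein synthesis genes mostly stayed within small changes. Over all genes 33.1% rose, but 49.7% of those with a mean from 1000 to 10000 and 67.5% of those at 10000 or more. The lists were not compared at matched levels. Of 84 cytosolic ribosomal protein genes 46 rose and 7 fell, with a median of 0.26, but under quantile normalization the median was -0.01 with 22 higher and 24 lower. *RPS28* rose from 2461, 2465 and 2300 to 6044, 5626 and 5979 and *RPL12* from 20708, 19926 and 22551 to 38126, 38438 and 37532, while *RPL39L*, a paralog known for restricted expression, fell from 392, 371 and 365 to 153, 117 and 139.5. Reads of ribosomal protein genes are uncertain because processed pseudogenes share their sequence. Of 64 initiation and elongation factors 33 rose and 11 fell. *EIF4A3*, of the exon junction complex, rose from 2974, 3112 and 3036 to 7552, 7374 and 7571 and *EIF4EBP2*, a repressor of cap-dependent initiation, by 1.04 ± 0.044. Ribosome biogenesis factors were even, 18 of 47 each way, with *GAR1*, of the pseudouridylation complex, lower from 1028, 1066 and 1173 to 370.2, 397 and 372. Of 24 chaperones 15 rose and 6 fell, but under quantile normalization 9 and 8, with a median of 0.04 in place of 0.27: *HSP90AA1* rose from 35607, 34701 and 35783 to 85346, 85627 and 86729 and the small heat shock protein *HSPB1* fell from 10560, 10564 and 10239 to 5539, 5827 and 5360. Aminoacyl-tRNA synthetases (9 higher and 5 lower of 20) and mitochondrial ribosomal proteins (23 and 20 of 77) changed their majority with equal totals, to 5 and 8 and to 12 and 34.

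Genes of energy metabolism also rose more often than they fell, again not compared at matched levels. Of 21 genes of the citric acid cycle 15 rose and 2 fell, with a median of 0.38. *OGDH*, a subunit of the 2-oxoglutarate dehydrogenase, rose from 4385, 4377 and 4364 to 15119, 15231 and 14876 and *IDH3A* from 419, 421 and 459 to 1221, 1171 and 1295, and *SUCLG2* was at -0.95 ± 0.055. Of 39 genes of respiratory complexes II to V 25 rose and 2 fell, with the ATP synthase subunits *ATP5F1A* and *ATP5F1B* at 0.84 and 0.87, and of 38 genes of complex I 17 rose and 8 fell. The complex I median of 0.15 became -0.02 with equal totals.

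Lipid lists were not one-sided, beside 33.9% of all genes lower and 33.1% higher. Of 27 genes of cholesterol synthesis and uptake 13 fell and 6 rose. *HMGCS1*, at the entry of the mevalonate pathway, fell from 2520, 2505 and 2545 to 973, 863 and 928 and *FDPS*, which makes farnesyl diphosphate, from 1313, 1354 and 1369 to 393, 430.3 and 464. Of 8 efflux genes 5 fell, with *APOE*, a lipid carrier, at 4152, 4052 and 3491 with DMSO and 957, 962 and 842 with AZD5153, and the transporter *ABCA1* at -1.05 ± 0.090. Of 20 fatty acid genes 8 rose and 6 fell, and with equal totals 7 and 11. The desaturase *FADS2*, which overlaps *FADS1*, fell from 15709, 15738 and 15060 to 4225, 4191 and 4240 and the elongase *ELOVL6* from 3823, 3655 and 3813 to 1234, 1247 and 1266. Of 12 genes of serine and one-carbon metabolism 5 rose and 4 fell, and with equal totals 3 and 4.

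Lysosome and antioxidant genes rose more often than they fell, likewise not compared at matched levels. Of 17 tested subunits of the V-ATPase, the proton pump of lysosomes, 14 rose and 0 fell, with a median of 0.59, and *ATP6V0D1* went from 1084, 1124 and 1107 to 3227, 3153 and 3248. Of 51 lysosomal hydrolases and membrane proteins 30 rose and 14 fell. The protease legumain (*LGMN*) rose from 200, 201 and 230 to 1189, 1176 and 1142 and iduronate sulfatase (*IDS*) from 447, 415 and 455 to 1283, 1494 and 1432, while *CTSS*, given above, had the deepest loss of the list. Of 28 NRF2 antioxidant genes 21 rose and 3 fell, with a median of 0.87. *NQO1* (chr16:69706996-69726668), a quinone reductase, was at 3179, 2981 and 2943 with DMSO and 22583, 22424 and 22576 with AZD5153, 7.43-fold higher with a log2 change of 2.89 ± 0.041. Thioredoxin reductase (*TXNRD1*) rose from 6763, 6497 and 6656 to 45597, 46408 and 45725 and *FTL* from 80271, 77523 and 83595 to 360309, 369278 and 358994. *SLC7A11*, the cystine importer, fell from 615, 648 and 651 to 166, 148 and 146.

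Stress and death genes split by branch, beside 33.1% of all genes higher and 33.9% lower. Of 21 tested targets of ATF4, the factor of the integrated stress response, 11 fell and 2 rose, with a median of -0.34. *TRIB3*, a pseudokinase, fell from 1276, 1317 and 1263 to 395, 375 and 406, and the 2 that rose were *CTH*, of cysteine synthesis, and *SESN2*, a sensor of leucine, at 0.99 and 0.97. Of 24 genes of endoplasmic reticulum chaperones and the unfolded protein response 16 rose and 5 fell. The stress sensor *ERN1* (IRE1) rose from 215, 258 and 254 to 762, 757 and 781, while *XBP1*, whose mRNA IRE1 splices, fell from 784, 829.8 and 818 to 239, 240.1 and 230.2. Of 30 tested p53 targets 17 rose and 11 fell, with *TP53INP1* at 1.96 and *PHLDA3* at -1.82. In the BCL2 family 7 of 12 tested genes fell and 2 rose. The survival genes *BCL2* and *BCL2L1* had log2 changes of -1.76 and -0.87, whereas *MCL1*, also a survival gene, rose from 6518, 6689 and 6793 to 11142, 11059 and 11475 and the death-promoting *BCL2L11* (BIM) from 594, 574 and 611 to 1347, 1306 and 1394, where *MIR4435-2HG* overlaps it.

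Guidance and growth factor lists are read against the 33.9% of all genes that fell and the 33.1% that rose. Of 29 semaphorins, plexins and neuropilins 18 fell and 6 rose, with a median of -0.92. The co-receptors *NRP1* and *NRP2* fell from 3499, 3373 and 3482 to 429.5, 375 and 363 and from 2991, 3120 and 2976 to 445, 381 and 460.3. Of the plexins *PLXNA4* was at -3.33 and *PLXNA3* rose from 1896, 1914 and 1769 to 7157, 7096 and 7208. Of 28 tested receptor tyrosine kinases 9 fell, a share near that of all genes, and 6 rose, with the collagen receptor *DDR2* at -1.80 ± 0.058. In the TGF-beta and BMP list 17 of 32 genes fell and 9 rose: the activin subunit *INHBA* and the inhibitory *SMAD7* had log2 changes of -3.07 and -2.31, and *ID4* and *ID2*, which BMP signals induce, rose as given above. Of 32 WNT and Notch genes 21 fell and 5 rose, including *TCF7*, a WNT-responsive factor that overlaps the more abundant *SKP1*, at -4.10 and the ligand *WNT5B*, which overlaps *FBXL14*, at -3.57. Of 22 MAPK feedback genes 11 fell and 5 rose. *YAP1*, the coactivator of the Hippo pathway, fell from 2954, 3131 and 3129 to 1129, 1189 and 1253, yet 8 of the 21 genes of its list rose and 7 fell.

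Lineage genes gave no single direction, beside 33.1% of all genes higher and 33.9% lower. Of 19 tested of 36 glial genes 7 rose and 7 fell. *NES*, the intermediate filament nestin, fell from 1872, 2057 and 2050 to 542, 562 and 527 and *MBP*, of myelin, from 322, 324 and 330.4 to 38.3, 41.3 and 32.5. Of 14 tested neuronal genes 4 rose and 5 fell, all 4 and all 5 by more than 1 on the log2 scale. The list ranged from -5.37 to 3.83 with a median of -0.00, and the genes named here are among those that rose. *TUBB3*, a neuronal tubulin, was at 18.01, 19.5 and 20.5 with DMSO and 354, 252 and 267 with AZD5153, *UCHL1*, a neuronal ubiquitin hydrolase, rose from 17128, 17204 and 16180 to 53634, 52739 and 53475, and *MAP2*, a dendritic microtubule protein, rose by 1.85 ± 0.106. Of 39 HOX genes 2 passed the minimum mean and both fell, with *HOXB2* at -1.62. Of 5 tested endothelial markers 3 fell, with *PECAM1* at -4.07. The endothelial marker *ESAM* was the 1 that rose, from a mean of 60.2 with DMSO to 99.4 with AZD5153. Of 4 epithelial markers 1 rose and 1 fell. Zinc finger genes of chromosome 19, many of them repressors of transposable elements, had 67 of 231 higher and 53 lower. With equal totals these were 44 and 76 and under quantile normalization 108 and 27.

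The effect at 48 hours was set against that at 24 hours, each with DMSO libraries of its own time. Of the genes called at 48 hours, 8280 were also called in the same direction at 24 hours, 253 in the opposite direction and 1920 not at 24 hours. The test of the difference passed for 3829 genes (24.5%), more positive at 48 hours for 2254 (14.4%) and more negative for 1575 (10.1%). Scaling to 7 stably expressed genes gave 2812 and 1165 in place of 2254 and 1575, and equal totals gave 1760 and 1893. DMSO libraries at 24 hours differed most among themselves, and without their replicate 1 the counts were 2724 and 1803. Of the genes that fell at 48 hours, 942 were further from 0 than at 24 hours and 713 nearer by this test.

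**Figure D4:**
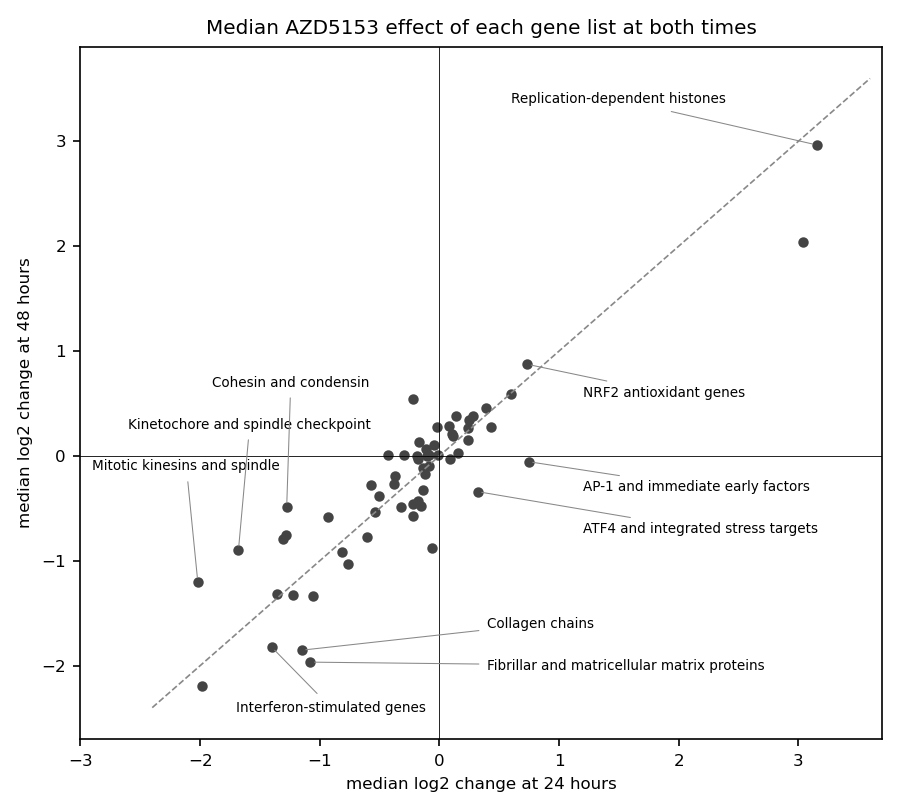
Each point is 1 of 61 gene lists, placed by the median log2 change of its tested members at 24 hours and at 48 hours, with a dashed line where both are equal. Spindle genes lie above the line (-2.02 and -1.20), and collagens (-1.15 and -1.85) and ATF4 targets (0.32 and -0.34) lie below it.

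The effect on cell division genes was nearer 0 at 48 hours and that on collagens and fibrillar matrix genes, by their medians, further from it. Of 42 kinesin and spindle genes 37 were more positive at 48 hours and 1 more negative, and the list median went from -2.02 to -1.20. Of 49 kinetochore genes 42 were more positive, of 48 replication genes 35, and 0 of either list were more negative. *E2F8*, a repressor of the E2F family, had the most positive difference among the genes ranked for it: -4.38 at 24 hours and -2.29 at 48 hours (difference 2.08, adjusted p = 1.4e-05 by limma). The DMSO level was not constant between times. *KIF18B* averaged 4403 ± 344 (SD, n = 3) with DMSO at 24 hours and 3236 ± 89.7 at 48 hours, and 648 ± 61.8 and 894 ± 75.4 with AZD5153, so both groups contribute to its difference of 0.91.

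Of 31 collagens 13 were more negative at 48 hours and 3 more positive, and of 27 fibrillar and matricellular genes 13 and 2. Other matrix lists were mixed. Of 15 laminin and basement membrane genes 1 was more negative and 2 more positive (medians of -0.54 and -0.53). Of 19 collagen processing genes 8 were more negative and 3 more positive, while their median went from -0.38 to -0.27. Of 28 matrix proteases and inhibitors 7 were more negative and 3 more positive, with medians of -0.32 and -0.48. *COL6A3* went from a change of -1.42 at 24 hours to -2.82. Its DMSO libraries averaged 130991 ± 4417 and 135300 ± 154 at the 2 times and its AZD5153 libraries 48871 ± 1043 and 19139 ± 538. For *FN1* the DMSO level rose as well, from a mean of 532081 ± 30093 to 693650 ± 21302, while AZD5153 went from 258940 ± 3881 to 171772 ± 3836. Of 45 interferon-stimulated genes 17 were more negative and 1 more positive. *RSAD2* differed by -2.30 (adjusted p = 0.031 by limma), and its DMSO mean was 121 ± 11.7 at 24 hours and 419.9 ± 29.6 at 48 hours.

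The median effect on ATF4 targets changed sign between the times. Of 21 ATF4 targets 13 were more negative at 48 hours and 0 more positive, and their median went from 0.32 to -0.34. *CEBPB*, a basic leucine zipper factor, had a change of 0.47 at 24 hours and -1.03 at 48 hours (difference -1.50, adjusted p = 0.00015 by limma). Among 25 AP-1 and immediate early genes 13 were more negative and 2 more positive, with medians of 0.75 and -0.05. Of 24 chaperones 15 were more positive and 2 more negative, with medians of -0.02 and 0.27.

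The single genes with the largest differences were mostly lower against DMSO at 48 hours than at 24 hours. *LCNL1*, a lipocalin-like gene, was at 301, 348 and 309.9 with DMSO and 16.4, 17.4 and 8.56 with AZD5153 at 48 hours, after 42.8, 64.1 and 39.2 and 67.04, 72.7 and 61.2 at 24 hours, a difference of -4.94 (adjusted p = 2.9e-07 by limma). Both the rise of its DMSO level and the fall of its AZD5153 level contribute. *NPR1*, *HSPB7*, a small heat shock protein of muscle, *ICAM1* and *GIPC3*, a PDZ protein, followed with -3.46, -3.24, -3.17 and -3.02. *SMAD7* changed by -0.22 at 24 hours and -2.31 at 48 hours, and *APOE* by -0.47 and -2.08. Late gains were seen for *DNER*, a neuronal Notch ligand, at -0.06 and then 1.86, and for *VSIR* (VISTA), an immune checkpoint receptor, at 1.63 and then 3.50.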

How the data were processed

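RNA of SF8628 cells was prepared with the NEBNext Ultra II kit and read as 150-base pairs. Per the labels the authors used STAR, HTSeq and DESeq2 with the hg38 build. Versions, annotation and strand setting are not given in the sources used here. The values the authors deposited are a signal per gene, namely its counts after division by the library's DESeq2 size factor. In every library 100% of values were whole multiples of 1 step (within 0.01 reads), so the reads were recovered. The table also holds log2 fold changes, p-values and adjusted values from a comparison the authors made, none of them used.

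Groups were taken from the library titles. Values were log2(normalized count + 1) and genes with a mean of at least 10 over 12 libraries were tested with limma 3.58.1 (R 4.3.3), with eBayes with a trend, 4 groups in 1 fit and 8 residual degrees of freedom, adjusted after Benjamini and Hochberg with a threshold of 0.05. The contrasts were AZD5153 against DMSO at 48 hours and its difference from that at 24 hours. edgeR 4.0.16 and DESeq2 1.42.0 on the recovered reads were alternatives. On simulated counts of 15463 genes with 199 changed, limma recovered 88.4% at 48 hours with 5 false calls, and 76.4% for the difference. The simulation gave all changed genes the same size of change and all genes the same replicate spread, with far fewer changed genes than were called here. These rates therefore need not hold for the data. Replicate libraries differed beyond counting noise (chi-square per degree of freedom of 2.37 to 3.92 at 48 hours), so each counts as 1 replicate. The same replicate number does not pair libraries.

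Positions are those of GENCODE 44 (GRCh38), matched by identifier for 60463 genes, and promoters are from RefSeq (GRCh38.p14). Gene lists were written by hand. The lists, the rule for genes named in the text and this comparison were chosen with earlier results of these data known. The rule took the 12 largest increases and 12 largest decreases among protein-coding genes with a mean of at least 100, passing the test and with groups that do not overlap, up to 3 genes of each list in the direction of most of its calls and up to 2 in the other, BET markers, and the 5 most positive and 5 most negative differences between times. Some of these are not reported here. *FN1*, *FTL*, *COL1A1*, *THY1*, *VIM*, *TYROBP*, *AIF1* and other cell markers were named besides. Alternatives varied the pseudocount, minimum mean, scaling, fit, count model, minimum change and the libraries left out. Other samples of the series were not analysed here.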

Additional observations from a re-analysis of the deposited data

Results flagged for a closer look

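The AZD5153 effect differed between 48 and 24 hours for 3829 genes by the limma test of the difference itself, which flagged each gene below. Differences are log2 change at 48 hours minus that at 24 hours. Deeper, smaller and larger refer to the change against the DMSO libraries of the same time. DMSO levels also differed between times, as given above for *RSAD2* and *LCNL1*. Losses that were deeper at 48 hours, or present only then by their values, were those of *LCNL1* (-4.94), *NPR1* (-3.46), *HSPB7* (-3.24), *ICAM1* (-3.17), *GIPC3* (-3.02), *SHISAL1* (-2.72), *CTSS* (-2.23), *SMAD7* (-2.09), *RFX8* (-2.08), *APOE* (-1.61), *PECAM1* (-1.36), *SLC7A11* (-1.15), *TCF7* (-0.99), *PHLDA3* (-1.01), *MBP* (-0.94), *NES* (-0.44), *FDPS* (-0.41), *SUCLG2* (-0.28) and *FOXM1* (-0.32). In the matrix and its proteases they were those of *ITGA10* (-2.26), *COL16A1* (-2.23), *FAP* (-2.22), *MMP1* (-2.01), *PCOLCE* (-1.94), *COL6A3* (-1.40), *EMILIN1* (-1.40), *LOX* (-1.13), *LTBP2* (-1.11), *COL8A2* (-1.06) and *FN1* (-0.98). Among interferon and antigen genes they were those of *IFITM2* (-2.87), *RSAD2* (-2.30), *OASL* (-1.85) and *PSMB8* (-0.75).

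Increases that were smaller at 48 hours were those of *FCGR1A* (-1.78), *SERPINI1* (-1.25), *H2BC18* (-1.15), *IFI6* (-1.08), *CCN2* (-1.06), *CDKN1A* (-0.75), *CTH* (-0.72), *ELL2* (-0.51), *TP53INP1* (-0.45), *P4HA1* (-0.40), *FLNC* (-0.38) and *CCND1* (-0.28). *CEBPB* (-1.50) was higher at 24 hours and lower at 48 hours.

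Decreases that were smaller at 48 hours were those of the cell division and repair genes *E2F8* (2.08), *RMI2* (1.19), *E2F2* (1.14), *ESPL1* (1.12), *KIF18B* (0.91), *SGO1* (0.78), *RRM1* (0.78), *CENPA* (0.76), *SMC2* (0.75), *NDC80* (0.63) and *HROB* (0.45), and of *PRRX1* (0.99), *ABCA1* (0.76), *PLXNA4* (0.73), *FADS2* (0.68) and *DDR2* (0.48). *THY1* (0.53) was lower at 24 hours and did not pass the test at 48 hours. Increases that were larger at 48 hours, or present only then by their values, were those of *DNER* (1.92), *VSIR* (1.87), *KAT2B* (0.82), *COL4A6* (0.56), *IDS* (0.54), *IDH3A* (0.53), *H2BC5* (0.50), *ATP6V0D1* (0.50), *UCHL1* (0.45), *ATP5F1A* (0.40), *SPP1* (0.39), *ATP5F1B* (0.38), *ORC4* (0.37), *RPS28* (0.36), *H3-3A* (0.35), *HSP90AA1* (0.32), *NQO1* (0.22), *TXNRD1* (0.21) and *EIF4A3* (0.21).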

How the results depend on the processing

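Of 3648 recomputed changes of the 152 named genes, 3645 kept their direction and their side of the threshold. The exceptions were *BRD3*, at -0.17 with equal totals and then passing as lower, and *THY1*, which did not pass under any of them and changed sign with equal totals and quantile normalization. Most of the 152 genes were named because their change was large and passed the test in these same libraries. Their agreement was therefore likely from the outset and does not describe genes near the threshold. Requiring a log2 change of at least 1 left 1379 genes higher and 2580 lower at 48 hours, and 196 more positive and 558 more negative between times, as fewer genes meet it. Leaving out 1 library in turn gave 4791 to 5556 genes higher and 4905 to 5608 lower, and 1794 to 2724 more positive and 1213 to 1977 more negative between times. Other alternatives kept these 4 counts within 1.5 times, with 5127 and 5450 by edgeR and 5162 and 5345 by DESeq2. List medians moved by more than the spread between libraries in 223 of 1464 recomputations, 58 of them with equal totals, and the ribosome biogenesis, fatty acid, YAP, Mediator, integrin, AP-1, one-carbon, glial and epithelial lists, beside the protein synthesis and zinc finger lists given above, changed their majority or tie under a scaling.

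With a replicate block 5078 genes were higher and 5212 lower at 48 hours, and 2012 were more positive and 1426 more negative between times. Same-numbered libraries did not deviate together (correlations of -0.0049, 0.0137 and 0.0115 at 48 hours, and of -0.049, 0.036 and -0.151 at 24 hours), so the numbers give no pairing. Depth limits genes of few reads: their fold changes depend on the added count of 1, and strand and RNA selection are unknown.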

Other observations

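The share of protein-coding genes of a chromosome that rose ranged from 28.3% on chromosome 19 (926 genes) to 42.7% on chromosome 21 (110 genes), and the share that fell from 29.4% on chromosome 14 to 43.9% on chromosome 12 (688 genes). Among motifs outside the families above, the cAMP response element TGACGTCA was held by 4.26% of promoters of genes that rose (3945 with a promoter sequence) and by 2.39% of those that fell (3976), against 3.19% of tested genes. These are descriptions with no test. The lysosomal motif TCACGTGA was in 4 of 33 promoters of lysosomal genes (12.1%) and 2 of 11 of the V-ATPase (18.2%), against 1.88% of tested genes. Shares of this size were not particular to these lists: 2 of 10 promoters of the BCL2 family (20%) and 2 of 14 of BET proteins and P-TEFb (14.3%) held it. Many other lists held none, such as the collagens with 0 of 23. The sterol element TCACNCCAC was in 1 of 21 promoters of cholesterol genes, and the ATF4 composite TGATGNAAT in 0 of 19 promoters of its list. The endoplasmic reticulum list held CCAAT in 19 of 23 promoters (82.6%).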
